A study of Mus musculus with 12 samples.

Results

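The cytosolic ribosomal proteins are the protein components of the ribosome that translates nuclear-encoded mRNA. They were followed here as 79 genes in mouse hearts, out of 82 protein-coding candidates and 54146 gene records in all. Members were chosen by symbol (Rpl and Rps genes with a number, the stalk genes Rplp0, Rplp1 and Rplp2, and Rpsa, without Rpl26) and by a minimum of 10 counts in at least 4 libraries. All 79 were among the 15477 genes that could be tested.

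Polyadenylated RNA of mouse hearts was sequenced in 12 libraries, 4 in each of 3 groups, taken 6 weeks after surgery. TAC KO libraries came from NRON KO animals, which lack the long noncoding RNA Nron, after transverse aortic constriction (TAC), a surgical narrowing of the aorta that loads the left ventricle. TAC WT libraries came from animals labelled NRON WT after the same operation, and Sham WT libraries from NRON WT animals after a sham operation. A knockout group with sham surgery is not analysed here, and the labels give no age, sex, strain or knockout allele for these groups. The labels do not say that libraries of a group came from separate animals, so each p-value reflects only how far these 12 libraries spread. TAC KO and TAC WT share the surgery, and TAC WT and Sham WT share the genotype. Each group enters 2 of the 3 comparisons, so these are not independent of each other.

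A ribosome holds a small subunit, which reads the mRNA and carries the Rps proteins, and a large subunit, which forms peptide bonds and carries the Rpl proteins. The acidic stalk proteins Rplp0, Rplp1 and Rplp2 recruit elongation factors to the large subunit. Most ribosomal protein mRNAs begin with a run of pyrimidines that makes their translation respond to growth signals through the kinase mTORC1 and the RNA-binding protein Larp1. In adult striated muscle the relative Rpl3l takes the place of Rpl3 in part of the ribosomes. The genes have left many processed copies in the genome, which can take or hide reads.

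Sequencing gave 26288519 to 35945770 counts per library, of which the 79 genes took 0.929% to 1.19%. Nron had 0 counts in all 12 libraries and in both of its records, where a 0 allows up to 3 counts, or 0.0835 to 0.114 CPM (counts scaled to library size). The counts therefore did not check the genotype labels. Genes of the highest GC quintile stood above those of the lowest by 0.11 to 0.43 (log2) in TAC KO libraries, against -0.15 to -0.06 in TAC WT and -0.12 to -0.05 in Sham WT libraries. The longest quintile of transcripts minus the shortest gave -0.25 to -0.14 in TAC KO, -0.04 to 0.19 in TAC WT and -0.0002 to 0.15 in Sham WT. The ribosomal protein transcripts are short, with a median of 775 bases against 2710 for all tested genes, and 77 of 79 lie below that median. Their median GC content was 51.8% against 50.3%. The counts of members called and the medians for TAC KO are therefore given as fitted and with these trends removed.

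Sequences are shown for 3 pairs on which the results turn, all from the GENCODE M21 transcripts and written 5′ to 3′ with the bases that differ within the pair in capitals. The first pair is Rpl3l (chromosome 17) and its relative Rpl3 (chromosome 15), over the 90 coding bases from the start codon, where 21 bases differ. Over 1203 aligned coding bases the pair is 74.7% identical.
Rpl3l: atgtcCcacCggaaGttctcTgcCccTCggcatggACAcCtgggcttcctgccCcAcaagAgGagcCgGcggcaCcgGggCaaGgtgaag
Rpl3: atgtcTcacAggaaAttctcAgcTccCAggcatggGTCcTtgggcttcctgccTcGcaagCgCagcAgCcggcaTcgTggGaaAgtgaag

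The second pair is the stalk gene Rplp1 (chromosome 9) and its processed copy Gm11942 (chromosome 4), over coding bases 169 to 258, the window with the most differences. They differ at 6 of these 90 bases, and at 9 of 342 over the whole coding sequence (97.4% identity).
Rplp1: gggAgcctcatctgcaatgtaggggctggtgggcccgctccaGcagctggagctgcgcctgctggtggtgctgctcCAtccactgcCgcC
Gm11942: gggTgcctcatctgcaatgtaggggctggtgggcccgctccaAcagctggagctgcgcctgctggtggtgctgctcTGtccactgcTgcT

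The third pair is Rpl24 (chromosome 16) and its processed copy Gm9385 (chromosome 9), over the first 90 coding bases of Rpl24, where 0 bases differ. It is shown because few reads were counted on Rpl24.
Rpl24: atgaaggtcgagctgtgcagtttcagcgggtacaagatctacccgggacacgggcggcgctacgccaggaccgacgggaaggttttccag
Gm9385: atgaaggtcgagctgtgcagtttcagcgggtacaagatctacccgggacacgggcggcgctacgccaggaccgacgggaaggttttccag

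Comparing TAC KO with TAC WT asks what the loss of Nron changed in the overloaded heart. The ribosomal protein genes stood slightly higher in TAC KO, with a median log2 change of 0.12 against -0.002 over all tested genes, and 76 of 79 fitted values were positive. Of the 79 genes, 15 rose and 0 fell (edgeR adjusted p under 0.05), while 64 did not pass. That is 19.0% of the members, where 15.7% of all tested genes rose and 17.3% fell. In bulk tissue, a change in the number of cells of a type and a change in RNA per cell cannot be told apart. After removal of the GC and length trends, 5 of 79 rose and 0 fell (6.33% higher, where 13.6% of all tested genes rose and 12.4% fell), and the median was 0.03 against 0.01 over all genes.

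The leading gene was Rpl3l (ENSMUSG00000002500.15, chromosome 17 from 24727820 to 24736143 of GRCm38, plus strand), which encodes the striated-muscle form of the large-subunit protein uL3. Rpl3l measured 316.6, 260.2, 299.3 and 292.5 CPM in TAC KO libraries, against 178.5, 199.97, 202.5 and 163.3 CPM in TAC WT libraries, and 301.1, 271.2, 265.0 and 251.5 CPM in Sham WT libraries. Every TAC WT library lay below every library of the other groups, and the TAC KO and Sham WT ranges overlapped. In TAC KO relative to TAC WT, Rpl3l rose by 0.65 on the log2 scale (edgeR, SE 0.08, adjusted p = 0.000132) and fell by 0.55 in TAC WT relative to Sham WT (SE 0.08, adjusted p = 0.000451). Between TAC KO and Sham WT the log2 change was 0.10 (SE 0.08, adjusted p = 0.389), and it was -0.07 with trends removed (adjusted p = 0.556). Both called changes passed with trends removed, at 0.49 and -0.56, and when any 1 library was left out, at 0.59 to 0.70 and at -0.59 to -0.49. All of its 50-base windows are found in no other annotated gene.

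Its relative Rpl3, the form made in most tissues, measured 104.9, 108.0, 128.9 and 120.6 CPM in TAC KO, 119.8, 106.3, 102.7 and 166.7 CPM in TAC WT, and 106.2, 105.6, 97.0 and 102.9 CPM in Sham WT. The highest Rpl3 and the lowest Rpl3l stood in the same library, TAC WT 4. Rpl3 passed in no comparison, with a log2 change of -0.10 in TAC KO relative to TAC WT (adjusted p = 0.576) and 0.27 in TAC WT relative to Sham WT (adjusted p = 0.151). Without TAC WT 4 the first of these was 0.08 and the second 0.09. Per kilobase of transcript, Rpl3l made up 71.3% ± 2.38 of the sum of both in TAC KO, 59.8% ± 7.74 in TAC WT and 72.2% ± 1.31 in Sham WT (SD, n = 4 each). The shares in the libraries ran from 69.5% to 74.8% in TAC KO, from 49.0% to 66.0% in TAC WT and from 70.6% to 73.6% in Sham WT. The TAC WT libraries did not overlap with the other groups in this share, and the share was not tested. Of the 50-base windows of Rpl3, 14.4% are found in no other gene, and its 7 copies held 77 counts. The part of reads shared with other genes in this share was not tested.

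**Figure D1:**
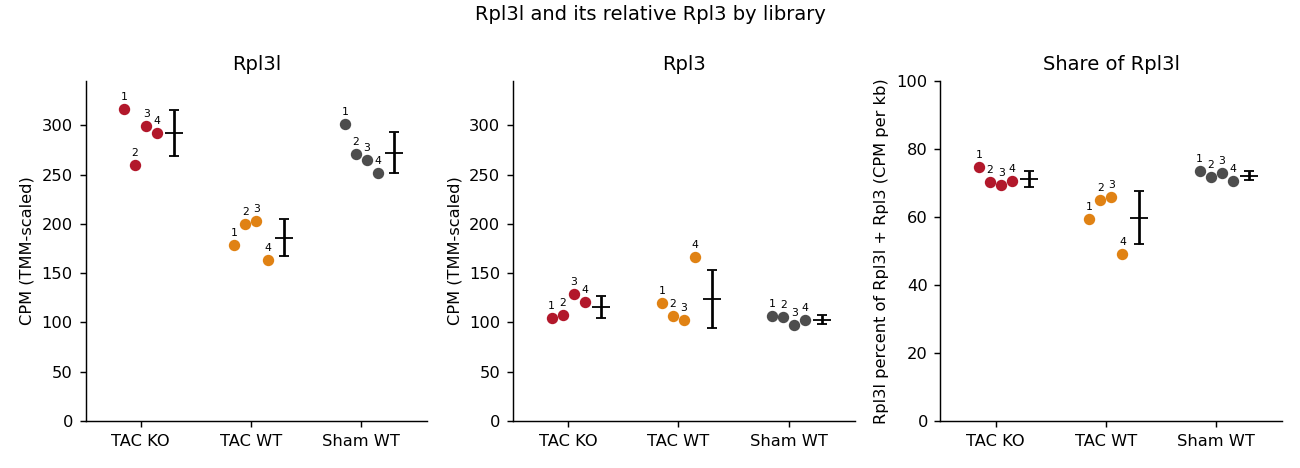
Levels of Rpl3l and Rpl3 (TMM-scaled CPM) and the share of Rpl3l in their sum per kilobase (percent), for 4 libraries each of TAC KO, TAC WT and Sham WT. Points are libraries with their replicate number, and bars are the mean and SD. Rpl3l was 163.3 to 202.5 CPM in TAC WT, below every other library, and TAC WT 4 was highest for Rpl3 at 166.7 CPM.

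Levels of some cell type markers differed between these groups. The summed level of 5 cardiomyocyte markers was 49518 to 52689 CPM in TAC KO, 50470 to 55177 in TAC WT and 56253 to 66167 in Sham WT. The largest part of this sum was Myh6. It lay at 22975 to 25735 CPM in TAC KO, 22693 to 27489 in TAC WT and 29148 to 32219 in Sham WT. Actc1 lay at 12357 to 13514, 12957 to 14269 and 10060 to 15161 CPM in these groups, and did not follow that order. Of the 5 markers, 1 rose and 0 fell in TAC KO relative to TAC WT, and 0 rose and 2 fell in TAC WT relative to Sham WT. In TAC KO relative to Sham WT 0 rose and 3 fell. Over all tested genes 15.7% rose and 17.3% fell in TAC KO relative to TAC WT. The shares were 12.8% and 14.8% in TAC KO relative to Sham WT, and 9.67% and 10% in TAC WT relative to Sham WT. The summed level of 6 macrophage markers was 153 to 197 CPM in TAC KO, 98.4 to 141 in TAC WT and 115 to 130 in Sham WT, and 4 of 6 rose in TAC KO relative to TAC WT. The 6 fibroblast markers summed to 861 to 1236 CPM in TAC KO, 771 to 1065 in TAC WT and 649 to 749 in Sham WT. Of these 6, 1 rose and 0 fell in TAC KO relative to TAC WT. Relative to Sham WT, 4 rose in TAC KO and 3 in TAC WT, and 0 fell in either. The 5 tested lymphocyte markers summed to 3.11 to 5.43 CPM in TAC KO, 2.68 to 4.04 in TAC WT and 2.91 to 4.89 in Sham WT, and none passed. The 5 endothelial markers summed to 857 to 994 CPM in TAC KO, 989.6 to 1230.2 in TAC WT and 983 to 1170 in Sham WT, and 1 of 5 fell in TAC KO relative to TAC WT. Mural cell markers (smooth muscle and pericyte) gave 1 higher and 1 lower of 5 in that comparison, and none of 4 erythroid and 4 proliferation markers passed in any comparison. The part of cell makeup in the changes of the ribosomal protein genes was not tested.

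Among the stalk proteins, Rplp0 and Rplp1 rose in TAC KO relative to TAC WT and Rplp2 did not pass. Rplp0, which anchors the stalk, measured 440.7, 424.3, 434.2 and 436.2 CPM in TAC KO, against 321.0, 325.8, 337.7 and 361.2 CPM in TAC WT, with no overlap. Sham WT libraries had 387.4, 386.2, 362.9 and 355.6 CPM. Relative to TAC WT the log2 change of Rplp0 was 0.37 (SE 0.06, edgeR adjusted p = 0.00041), and 0.25 with trends removed (adjusted p = 0.00294). Relative to Sham WT it rose by 0.22 (adjusted p = 0.0115), a call lost with trends removed.

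Rplp1 measured 384.0, 366.6, 389.3 and 395.4 CPM in TAC KO, 305.2, 304.2, 359.1 and 368.1 CPM in TAC WT, and 301.5, 285.7, 297.4 and 293.4 CPM in Sham WT. TAC WT 4 exceeded the lowest TAC KO library. The log2 change was 0.20 in TAC KO relative to TAC WT (adjusted p = 0.0374), and 0.02 with trends removed (adjusted p = 0.836). Rplp2 averaged 193 ± 10.8 CPM in TAC KO, 184 ± 20.3 CPM in TAC WT and 181 ± 3.38 CPM in Sham WT (SD, n = 4 each), and passed in no comparison. Between TAC KO and Sham WT its log2 change was 0.10 (SE 0.07, adjusted p = 0.347).

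In the small subunit 7 of 32 genes rose in TAC KO relative to TAC WT (background 15.7%), with a median log2 change of 0.13. With trends removed 3 of 32 rose (background 13.6%). These were Rps3, the only one of the 7 that kept its call, and Rps15a and Rps20, which did not pass as fitted. Rps2, a protein of the mRNA entry side, measured 364.4, 308.3, 361.9 and 341.1 CPM in TAC KO, against 254.3, 260.6, 295.6 and 296.9 CPM in TAC WT, without overlap. Sham WT libraries, at 275.1 to 344.1 CPM, overlapped with both. Rps2 rose by 0.31 in TAC KO relative to TAC WT (SE 0.08, adjusted p = 0.0113 with edgeR), and was at 0.13 with trends removed (adjusted p = 0.173).

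Other small-subunit genes that rose included Rpsa (log2 0.24), also known as a laminin receptor, Rps3 (0.21), which lies at the mRNA entry, Rps4x (0.19), Rps14 (0.19) and Rps9 (0.18). Of these, Rps3 passed with trends removed, at 0.19 (adjusted p = 0.0315), and Rpsa (0.08), Rps4x (0.12), Rps14 (0.03) and Rps9 (0.03) did not. The call of Rpsa was lost in 6 of 8 fits with 1 library left out, with adjusted p up to 0.0885. Rps6, the protein that the S6 kinases phosphorylate downstream of mTORC1, averaged 82.6 ± 5.79 CPM in TAC KO, 75.3 ± 5.20 CPM in TAC WT and 77.0 ± 1.59 CPM in Sham WT (SD, n = 4 each). It passed in no comparison (log2 0.13 in TAC KO relative to TAC WT, adjusted p = 0.125, and 0.18 with adjusted p = 0.0469 without TAC WT 4). Rps27a, made as a fusion with ubiquitin, was at 0.09 in that comparison (adjusted p = 0.33) and rose in TAC KO relative to Sham WT (0.21, adjusted p = 0.0315), a call lost with trends removed (0.15, adjusted p = 0.113).

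In the large subunit, leaving out the stalk, 6 of 44 genes rose in TAC KO relative to TAC WT, where 15.7% of all tested genes rose. Rpl18 measured 136.8, 129.8, 138.3 and 140.5 CPM in TAC KO, 110.7, 103.7, 112.9 and 128.9 CPM in TAC WT, and 111.4, 109.2, 112.5 and 108.7 CPM in Sham WT. All TAC KO libraries lay above all others, the nearest being TAC WT 4. Its log2 change was 0.26 relative to TAC WT (SE 0.06, edgeR adjusted p = 0.00774) and 0.30 relative to Sham WT (SE 0.06, adjusted p = 0.00363). With trends removed these were 0.06 (adjusted p = 0.472) and 0.11 (adjusted p = 0.205).

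Rpl7a measured 219.5, 209.7, 221.8 and 228.9 CPM in TAC KO, against 169.5, 164.3, 180.4 and 202.6 CPM in TAC WT (log2 0.30, SE 0.07, adjusted p = 0.00534), with no overlap. Rpl10, which joins the large subunit late in its assembly, was at 0.25 (adjusted p = 0.00894), Rpl8 at 0.21 and Rpl6 at 0.21. Of the large-subunit genes that rose, Rpl3l alone passed with trends removed, where Rpl7a was at 0.17 (adjusted p = 0.0585), Rpl10 at 0.15, Rpl6 at 0.12 and Rpl8 at 0.02.

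**Figure D2:**
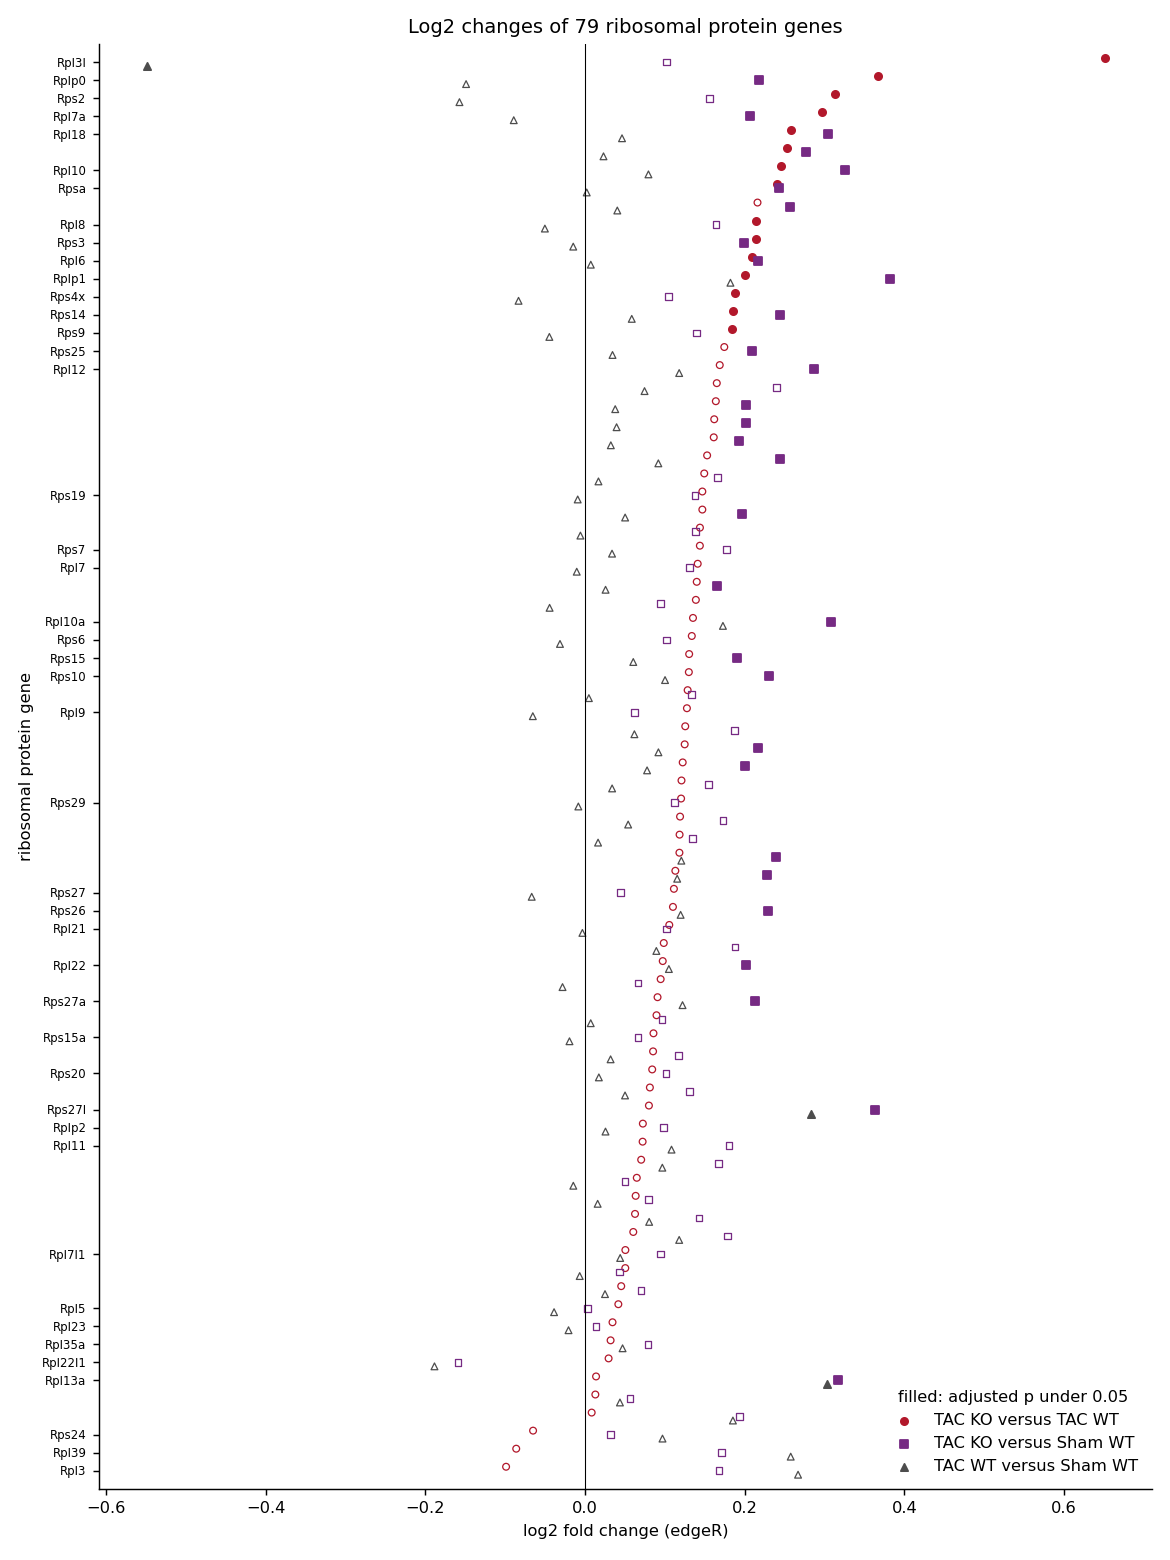
Log2 fold changes of the 79 genes (rows, ordered by TAC KO versus TAC WT) in 3 comparisons with edgeR. Filled symbols passed an adjusted p under 0.05, and rows are labelled for genes named in the text. Most circles and squares lie right of 0, with Rpl3l at 0.65 in TAC KO versus TAC WT and at -0.55 in TAC WT versus Sham WT.

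The 3 genes with a negative fitted value in TAC KO relative to TAC WT were Rpl3 (-0.10), Rpl39 (-0.09), the protein of the exit tunnel, and Rps24 (-0.07). None of them passed, with adjusted p from 0.509 to 0.576. Groups did not overlap for 15 of 79 genes, all with TAC KO higher, where 13.3% of all tested genes showed this. Of the genes that rose, 12 were among these 15, and Rpl8, Rplp1 and Rpsa were not.

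The summed level of the 79 genes was 11242, 11002, 11708 and 11672 CPM in TAC KO, 9630, 9466, 10559 and 11320 CPM in TAC WT, and 10642, 10095, 10126 and 9852 CPM in Sham WT. TAC WT 4 fell within the TAC KO range, and TAC WT 1 and TAC WT 2 lay below all Sham WT libraries. Without TAC WT 4 the number of genes that rose was 34, without TAC WT 1 it was 7, and without TAC WT 2 or TAC KO 4 it was 9. Over all tested genes 1816 to 2413 rose with 1 library left out, against 2428 as fitted. The log2 ratio of the mean sums was 0.16 in TAC KO relative to TAC WT and 0.12 to 0.21 with 1 library left out.

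**Figure D3:**
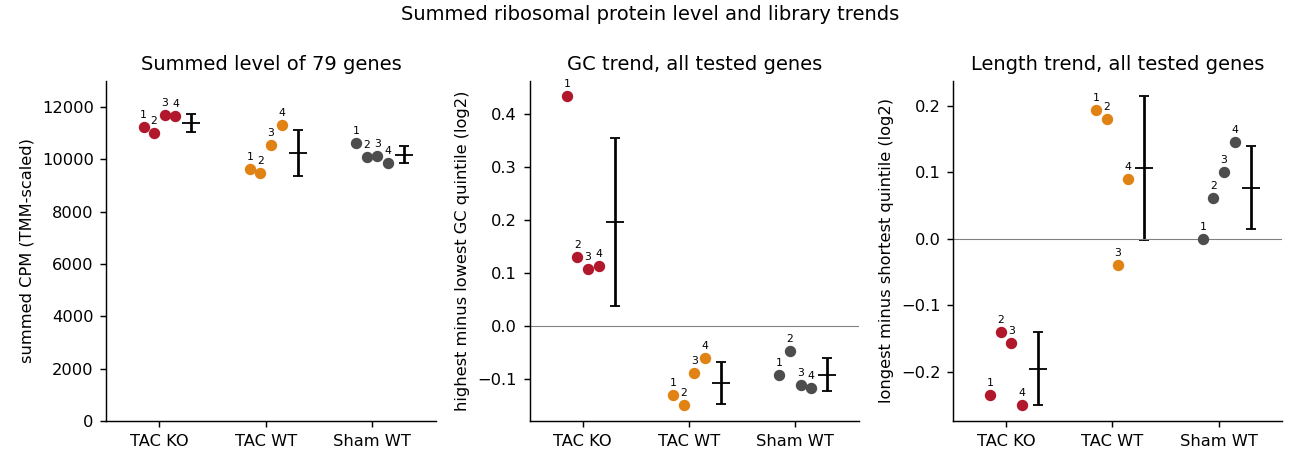
Summed level of the 79 genes (TMM-scaled CPM) and GC and length trends, by library (4 each of TAC KO, TAC WT and Sham WT). Each trend is a difference of median log2 deviations from each gene's mean over all libraries, for all tested genes. It is the highest minus the lowest GC quintile, or the longest minus the shortest transcript quintile. Points are libraries with their replicate number, bars are the mean and SD. TAC WT 4 reached 11320 CPM, inside the TAC KO range of 11002 to 11708 CPM, and both trends separated TAC KO from the other groups.

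Comparing TAC KO with Sham WT covers surgery and genotype together, which cannot be told apart in it. Here 31 of 79 genes rose and 0 fell (39.2%, where 12.8% of all tested genes rose and 14.8% fell), with a median log2 change of 0.17 against 0.0003 over all genes. The groups did not overlap for 46 of 79 genes, all with TAC KO higher, where 14.3% of all tested genes showed this. After removal of both trends, 8 rose and 0 fell (10.1% higher, where 10.5% of all tested genes rose and 10.3% fell), and the median was 0.06. With 1 library left out, the number that rose was 11 to 26, the lowest without Sham WT 4, and it was 13 or 14 without Sham WT 3, TAC KO 4 or TAC KO 3 and 15 without Sham WT 2. Over all tested genes 1378 to 1846 rose with 1 library left out, against 1986 as fitted.

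High log2 changes among those that passed included Rplp1 (0.38, adjusted p = 0.00131), Rps27l (0.36), Rpl10 (0.33), Rpl13a (0.32), Rpl10a (0.31), Rpl18 (0.30) and Rpl12 (0.29). Rpl12, a neighbour of the stalk, lost its call in 5 of 8 fits with 1 library left out (adjusted p up to 0.0928). The 8 genes that passed with trends removed were Rplp1, Rps27l, Rpl10, Rpl22, Rps3, Rps25, Rps20 and Rps15a. Of these, Rps20 (0.10 as fitted and 0.32 with trends removed) and Rps15a (0.07 and 0.23) passed with trends removed and not without. Their reference transcripts are 3706 and 5130 bases long, against a median of 775 for the members. In TAC KO relative to TAC WT the 5 genes that passed with trends removed were Rpl3l, Rplp0, Rps3, Rps15a (0.25) and Rps20 (0.29).

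**Figure D4:**
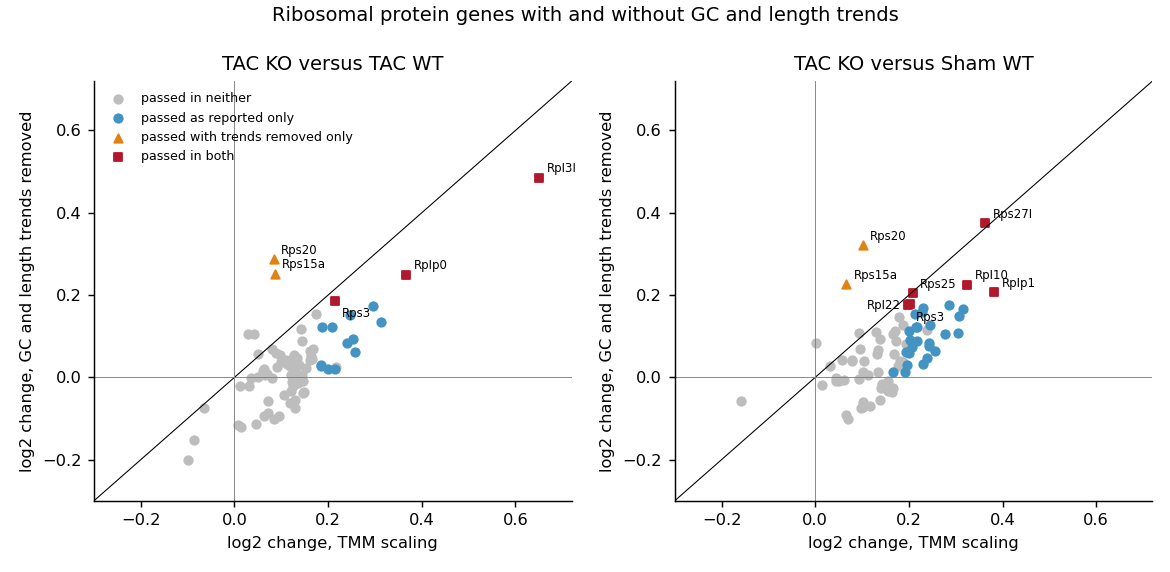
Log2 change of each of the 79 genes as fitted with TMM scaling (x axis) and with GC and length trends removed (y axis), for TAC KO versus TAC WT and TAC KO versus Sham WT. The line marks equal values. Most points lie below the line, with medians of 0.12 and 0.17 as fitted and 0.03 and 0.06 with trends removed.

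Comparing TAC WT with Sham WT asks what pressure overload changed in wild-type hearts. Of 79 genes 2 rose and 1 fell, or 2.53% and 1.27%, where 9.67% of all tested genes rose and 10% fell. The median log2 change was 0.03 against -0.0004 over all genes. Rps27l, the relative of Rps27 known as a target of p53, measured 38.4, 38.7, 44.5 and 45.8 CPM in TAC WT, against 36.2, 31.9, 35.7 and 33.7 CPM in Sham WT, without overlap (log2 0.28, SE 0.07, edgeR adjusted p = 0.0114). TAC KO libraries lay at 41.9 to 45.7 CPM, and the change in TAC KO relative to TAC WT was 0.08 (adjusted p = 0.41). Rpl13a, known in mammals also for a role in silencing of inflammatory mRNAs, measured 10.5, 11.6, 12.6 and 13.4 CPM in TAC WT, against 9.5, 9.9, 9.97 and 9.6 CPM in Sham WT, a log2 change of 0.30 (adjusted p = 0.0174). Without TAC WT 4 the call of Rpl13a was lost (0.25, adjusted p = 0.0551). The gene that fell was Rpl3l, described above. In this comparison trends removed gave 3 genes that rose and 2 that fell (background 10.7% and 11.5%), the added ones being Rplp1 (0.19, adjusted p = 0.0293) and Rplp0 (-0.16, adjusted p = 0.0316).

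The other members with a relative in the family were 3 pairs. Rps27 had a log2 change of 0.11 in TAC KO relative to TAC WT (adjusted p = 0.134) and -0.07 in TAC WT relative to Sham WT (adjusted p = 0.428). Rpl22l1, which in mice can stand in for Rpl22, measured 14.7 to 16.8 CPM in TAC KO, 13.0 to 20.5 CPM in TAC WT and 15.3 to 22.7 CPM in Sham WT, and passed in no comparison. Rpl22 rose in TAC KO relative to Sham WT (0.20, adjusted p = 0.0207). Rpl7l1 and Rpl7 passed in no comparison, with log2 changes of 0.05 and 0.14 in TAC KO relative to TAC WT.

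The genes in this paragraph are a choice from those linked to Diamond-Blackfan anaemia or the Mdm2 pathway, not a full set. None of them passed in TAC KO relative to TAC WT as fitted. Rpl5 and Rpl11, which bind Mdm2 as part of the 5S particle, were at 0.04 (adjusted p = 0.683) and 0.07 (adjusted p = 0.524). Rps19, the gene most often mutated in the human anaemia, was at 0.15 (adjusted p = 0.146), and at 0.22 without TAC WT 4 (adjusted p = 0.0223). Without that library Rps26 was at 0.20 (adjusted p = 0.0351). Rps7, Rps10, Rps24, Rps26, Rpl35a and Rpl23 lay from -0.07 to 0.14. Relative to Sham WT, Rps10 (0.23, adjusted p = 0.012) and Rps26 (0.23, adjusted p = 0.0407) rose in TAC KO. With trends removed both calls were lost, at 0.03 (adjusted p = 0.753) for Rps10 and 0.17 (adjusted p = 0.131) for Rps26.

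Per kilobase of transcript the 79 levels spanned a wide range. In Sham WT, Rplp1 was first at 590 ± 13.5 CPM per kb, then Rps15 at 502 ± 8.93, Rps29 at 402 ± 12.4 and Rps14 at 361 ± 11.4 (SD, n = 4 each). These 4 kept this order in TAC KO, at 769 ± 24.8, 572 ± 13.3, 435 ± 16.7 and 427 ± 14.3, where the last 2 lie within their spread. The lowest were Rpl13a at 9.31 ± 0.228 and Rps15a at 18.8 ± 0.663 in Sham WT. The level of Rps15a is divided by a reference transcript of 5130 bases, and 14.6% of the counts of Rpl13a and its copies lay on the copies. Rpl3l was number 22 in that order at 198 CPM per kb, and Rpl3 number 64 at 76.2.

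Copies of the members were counted because they can take reads. Of 79 members, 59 had at least 1 annotated copy (identity of 95% or higher, covering 50% or more of its transcript), and Rpl21 had the most, 42. This rule can miss genes that share sequence with a member. Rpl5, with a reference transcript of 2045 bases, had 0 copies by it. Yet 6.16% of its 50-base windows are found in no other gene. The members with the most counts on copies were Rplp1 (2936), Rpl9 (2189) and Rps14 (1439). The 434 copy records held 24679 counts against 4146972 on the members, or 0.592% of the sum, and 47 of them had no count. In 46 members fewer than 50% of the 50-base windows are found in no other gene, with the lowest share, 1.35%, in Rps27. In TAC KO relative to TAC WT, 8 of these 46 rose with a median of 0.13, and 7 of the 33 others rose with a median of 0.12. Over all tested genes 15.7% rose. Summing the copies into their members left 15, 31 and 2 genes higher in the 3 comparisons, as without them. Without summing, 15.7%, 12.8% and 9.67% of all tested genes rose in these comparisons. With 0.592% of the counts on copies, the sum could change little. It cannot bring back reads dropped for matching several places, and how such reads were counted is not given.

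The 3 candidates below the level rule were Rpl10l, Rpl39l and Rpl24. Rpl10l, a retrogene of Rpl10 best known from testis, had 0 counts in all 12 libraries. Rpl39l had 2 to 18 counts per library. Rpl24, a large-subunit protein found in all cells, had 1 to 12 counts per library, 82 in all, while its copy Gm9385, identical over the stretch shown, held 191. The lowest member inside the rule was Rpl13a at 9.5 to 13.4 CPM. How reads that match 2 places were counted is not given in the sources used here, so the level of Rpl24 cannot be read from these counts.

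The copy with the smallest p in TAC WT relative to Sham WT was Gm11942, which separated Sham WT from both TAC groups. Gm11942, the copy of Rplp1 shown above, lies on chromosome 4 from 32964888 to 32965232 of GRCm38 (plus strand), between Ankrd6 and Rragd. It had 8, 11, 7 and 9 counts in TAC KO, 3, 2, 12 and 4 counts in TAC WT, and 456, 967, 557 and 370 counts in Sham WT. It fell by 6.74 on the log2 scale in TAC WT relative to Sham WT (SE 0.36, edgeR adjusted p = 2.096e-07), where it ranked number 1 of 15477 by p. In TAC KO relative to Sham WT it fell by 6.02 (SE 0.33, adjusted p = 8.718e-08), and TAC KO relative to TAC WT did not pass (log2 0.72, SE 0.61, adjusted p = 0.391).

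Its neighbours did not pass in TAC WT relative to Sham WT, with Ankrd6 at -0.09 (adjusted p = 0.701) and Rragd at -0.13 (adjusted p = 0.544). The other Rplp1 copy with many counts, Gm10073 on chromosome 8, went the other way, with 54, 44, 69 and 66 counts in TAC KO, 54, 48, 62 and 52 in TAC WT and 22, 4, 22 and 31 in Sham WT, again without overlap between Sham WT and the TAC libraries (log2 1.43 in TAC WT relative to Sham WT, adjusted p = 0.0117). With the copies summed into it, the log2 change of Rplp1 in TAC KO relative to Sham WT was 0.30 instead of 0.38 and still passed (adjusted p = 0.00537), and in TAC WT relative to Sham WT it was 0.10 instead of 0.18. Copies took 0.509% to 0.543% of the family's counts in TAC KO, 0.503% to 0.582% in TAC WT and 0.655% to 0.769% in Sham WT. Without Gm11942 these shares were 0.506% to 0.540%, 0.502% to 0.578% and 0.498% to 0.560%. Surgery cannot be told apart here from other differences between the sham-operated and the constricted animals, since the labels give no strain, litter or date.

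**Figure D5:**
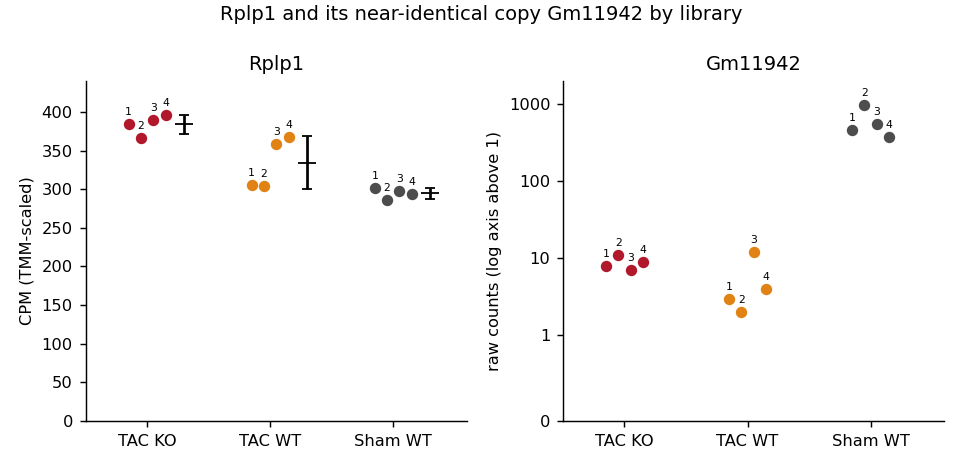
Rplp1 (TMM-scaled CPM, with mean and SD) and its copy Gm11942 (raw counts on an axis that is logarithmic above 1), for 4 libraries each of TAC KO, TAC WT and Sham WT. Points are libraries with their replicate number. Gm11942 had 2 to 12 counts in the 8 TAC libraries and 370 to 967 in the 4 Sham WT libraries.

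Transcript starts were read for the pyrimidine runs known from this family. RefSeq gave a start for 59 members (GRCm38.p6). A run of at least 6 bases made of C and T on the sense strand, reaching into the window from 3 bases before to 6 bases after the start, was found in 26 of these (44.1%), where 19.7% of 32851 RefSeq starts had one. The start base was C in 33.9% of members and in 16.3% of all starts. Each member entered with a single start, the one nearest the start of its reference transcript. The 32851 starts include every distinct start of each gene, so the shares rest on unlike sets. Windows of 30 bases, 15 on each side, are shown for 2 genes that rose with a run and 2 that rose without one, with the run in capitals. They lie at chr7:45718056-45718085 for Rpl18, chr17:24720048-24720077 for Rps2, chr5:115559452-115559481 for Rplp0 and chr17:24727811-24727840 for Rpl3l, all on the plus strand.
Rpl18: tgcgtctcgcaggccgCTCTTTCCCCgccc
Rps2: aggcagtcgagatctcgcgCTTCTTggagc
Rplp0: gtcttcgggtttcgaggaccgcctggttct
Rpl3l: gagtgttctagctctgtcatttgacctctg

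No match says only that these letters are not in this window, and annotated starts can lie some bases from the start in use.

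Other mRNAs with such starts code for translation factors. Of 23 such genes that are not among the 79 members, 4 rose and 2 fell in TAC KO relative to TAC WT (background 15.7% and 17.3%), with a median of 0.11 as fitted and 0.04 with trends removed. After that removal 2 rose and 1 fell (background 13.6% and 12.4%). Values of single genes are as fitted unless stated. Eef2, which moves the ribosome along the mRNA, averaged 1486 ± 135 CPM in TAC KO and 1201 ± 60.2 CPM in TAC WT (SD, n = 4 each; log2 0.31, edgeR adjusted p = 0.00431). Rack1, a protein of the small subunit's head, was at 0.22 (adjusted p = 0.0165), the splicing protein Hnrnpa1 at -0.34 and the poly(A) binding protein Pabpc1 at -0.23. The muscle elongation factor Eef1a2 rose (0.32, adjusted p = 0.00546), a call lost with trends removed.

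Ribosome biogenesis factors assemble the subunits in the nucleolus. Of 40 genes, 16 rose and 0 fell in TAC WT relative to Sham WT (background 9.67% and 10%), and 1 rose and 11 fell in TAC KO relative to TAC WT (15.7% and 17.3%), with medians of 0.23 and -0.11. With trends removed the counts were 18 and 0, and 1 and 11. Ncl, the nucleolar protein nucleolin, measured 170, 181, 183 and 172 CPM in TAC KO, 258, 255, 247 and 267 CPM in TAC WT, and 229, 238, 240 and 236 CPM in Sham WT. Its TAC KO libraries lay below all others, with a log2 change of -0.54 relative to TAC WT (SE 0.05, adjusted p = 1.692e-05). Rrp12, known in yeast as an export factor of both subunits, averaged 48.1 ± 4.69 CPM in TAC KO, 60.4 ± 8.85 CPM in TAC WT and 33.1 ± 2.74 CPM in Sham WT. It rose by 0.87 in TAC WT relative to Sham WT (adjusted p = 7.861e-05) and fell by 0.33 in TAC KO relative to TAC WT (adjusted p = 0.0249). The large-subunit remodelling ATPase Mdn1 was at 0.44 and -0.70 in these comparisons, the nucleolar factors Gnl3 at 0.60 and -0.42 and Heatr1 at 0.57 and -0.36. In TAC KO relative to Sham WT 9 of the 40 rose and 2 fell (background 12.8% and 14.8%).

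Of 14 genes for RNA polymerase I transcription, which makes the precursor of ribosomal RNA, 1 rose and 2 fell in TAC KO relative to TAC WT (background 15.7% and 17.3%), and 0 rose and 4 fell with trends removed. In TAC WT relative to Sham WT 2 rose (background 9.67%). One of these was Myc, at 1.43 (edgeR adjusted p = 0.000976), a general transcription factor in this list that is not part of the polymerase I machinery. Of 27 translation initiation factors, 9 rose and 7 fell in TAC KO relative to TAC WT (background 15.7% and 17.3%), and 13 rose and 4 fell in TAC KO relative to Sham WT (12.8% and 14.8%). Those that fell included Eif5b, the subunit-joining factor (-0.88, adjusted p = 5.488e-06), and Eif3a, the scaffold of eIF3 (-0.86, adjusted p = 7.422e-06). Those that rose in TAC KO relative to TAC WT lay between 0.19 and 0.28. With trends removed 6 rose and 6 fell.

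Of 14 genes of mTORC1 and the Larp proteins, 2 rose and 3 fell in TAC KO relative to TAC WT (background 15.7% and 17.3%). Larp1 measured 119, 120, 123 and 108 CPM in TAC KO, 155, 151, 138 and 155 CPM in TAC WT, and 118, 132, 132 and 133 CPM in Sham WT. The log2 change of Larp1 was -0.35 in TAC KO relative to TAC WT (SE 0.06, adjusted p = 0.00115) and 0.22 in TAC WT relative to Sham WT (adjusted p = 0.0239). Eif4ebp1, the translation repressor that mTORC1 phosphorylates, was at 0.55 in TAC KO relative to TAC WT (adjusted p = 0.00154) and Rps6kb1, an S6 kinase, at -0.25. With trends removed 1 rose and 1 fell in TAC KO relative to TAC WT (background 13.6% and 12.4%). The values of single genes given here are as fitted.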

How the data were processed

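The deposited values were raw whole-number counts per gene record, 1 file per library, which the authors made from polyadenylated RNA (250 ng input, strand-marking kit, per the labels' protocols). The submitters' processing notes name featureCounts 1.6.4 and STAR on GRCm38, with Trim Galore 0.5.0, bcl2fastq, StringTie 1.3.5 and DESeq2, and FastQC 0.11.8 and MultiQC 1.7 for quality. The counting of reads with several matches, the strand setting and the annotation release are not given in the sources used here.

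Identifiers were matched without version to GENCODE M21, which named 54079 of 54146 records. All 12 libraries entered 1 edgeR 4.0.16 quasi-likelihood fit (R 4.3.3, TMM scaling, filterByExpr), with Benjamini-Hochberg adjustment over 15477 genes and a threshold of 0.05. Levels are TMM-scaled CPM, with deviations of libraries on log2(CPM + 0.05). Counting limits cover counting error only. Replicates were numbered in accession order. Each library's trends with GC and length were taken out by spline offsets (5 degrees of freedom each) over genes with a value (5 had none). Copies were found with minimap2 2.31-r1302 at 95% identity over 50% of a transcript, among pseudogenes and Rp or Gm symbols, a limit set after seeing that host genes of retrocopies matched too.

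The members, 14 gene lists and the naming rule were chosen with earlier results of these data known. The rule named up to 8 members with the highest and lowest change per comparison, paralogues, stalk and disease genes, and up to 4 genes per list; a few results it would name are not reported here. Gm11942, Gm10073, Ankrd6, Rragd, Rps15a, Rps20, Rpl24, Rps3, Rps4x, Rps9, Rps14, Rpl6, Rpl8, Rps15, Rps29, Rps25 and Rpl9 were named after their values were seen. On simulated data for TAC KO versus TAC WT edgeR recovered 81% of 2-fold and 52% of 1.5-fold changed genes, and 6.34% of its calls were false. The simulated data held few changed genes, no change below 1.5-fold, and no GC or length trend. These rates therefore do not carry over to the smaller changes of most members. Alternatives were DESeq2 1.42.0, RLE scaling, other filters, fits of the compared groups alone, trends removed, copies summed and each library left out.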

Additional observations from a re-analysis of the deposited data

Results flagged for a closer look

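Of 78 group and measure combinations checked for a distant library, 1 stood out, where chance gives about 1 in 20. Rpl7a was at 205.46 CPM in Sham WT 1, against 184.24 to 187.18 CPM in the other Sham WT libraries. The TAC KO libraries, at 209.7 to 228.9 CPM, lay above all of them.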

How the results depend on the processing

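The number of members higher in TAC KO relative to TAC WT was 15 as reported, 9 in a fit of the compared groups alone, 5 with GC and length trends removed and 7 to 34 with 1 library left out. Relative to Sham WT it was 31 as reported, 19 with no low-count filter, 8 with trends removed and 11 to 26 with 1 library left out. With trends removed the median log2 changes were 0.0259 and 0.0605. In TAC WT relative to Sham WT, 1 to 4 members rose and 1 to 2 fell with 1 library left out, 2 fell with DESeq2, and 3 rose and 2 fell with trends removed. Values that turned sign, none of them called, included Rpl3 in TAC KO relative to TAC WT (-0.1795 to 0.0773 with 1 library left out) and Rpl3l in TAC KO relative to Sham WT (-0.0724 with trends removed). With trends removed, 24, 19 and 6 of the 79 members turned sign in TAC KO versus TAC WT, TAC KO versus Sham WT and TAC WT versus Sham WT, 0 of them called as reported. In TAC WT relative to Sham WT the median of the members (-0.0133 to 0.0718) and the log2 ratio of summed levels (-0.0422 to 0.0453) also turned sign with 1 library left out. The cause was not tested. The log2 ratios of summed levels moved by less than the spread between libraries under each alternative run. The number of members called lower was 0 for TAC KO in both comparisons under every alternative run. The spread between the 4 libraries of a group and the sharing of reads with copies limit these values. No paired analysis was possible because the labels give no replicate numbers that link libraries across groups.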
